A study of Mus musculus with 15 samples.

Results

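Tubulin isotypes are the products of separate genes for alpha-tubulin and beta-tubulin, and 10 of these genes were listed for a description of their expression in 21EM15 cells: *Tuba1a*, *Tuba1b*, *Tuba1c*, *Tuba4a*, *Tubb2a*, *Tubb2b*, *Tubb3*, *Tubb4b*, *Tubb5* and *Tubb6*. The genes were listed with earlier results of these data known, and the members were then selected on presence in the deposited values, so a gene was kept when it had a row in both tables after the authors' filter on low CPM (counts scaled to the library's total). This kept 8 of the 10, namely 3 alpha-tubulin and 5 beta-tubulin genes, among 11677 genes measured in the cultures and 11299 in the spheroid regions (11041 in both). *Tuba1a* and *Tubb3* had no row in either table and were not analysed here, so every share and sum below refers to the 8 genes only.

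21EM15 is an established line of mouse lens epithelial cells. The 15 samples comprised 4 flat cultures (2D), harvested subconfluent from dishes, and 4 samples of spheroids (3D), grown for 10 days in wells coated against adhesion and pooled before extraction. They also comprised 4 internal and 3 external samples, named for the layer, which were cut from frozen sections of spheroids by laser capture microdissection. All of them were labelled WT, the labels name no added agent, and each spheroid or region sample pooled many spheroids. By the study's methods each 2D sample was a dish of its own, but the sources do not say whether the samples of a group came from separate passages or days, so the p-values measure the spread between these samples, which may be technical.

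Alpha- and beta-tubulin form the heterodimers that polymerise into microtubules, the hollow filaments that carry cargo, shape cells and build the mitotic spindle. In the lens, microtubules lie along the elongating fiber cells. Cells hold their tubulin mRNAs in check by autoregulation, in which excess free tubulin triggers the decay of tubulin mRNAs on ribosomes through recognition of the first amino acids of the nascent chain.

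The beginnings of the coding sequences are shown because that autoregulatory signal is encoded there. The capitals mark the first 4 codons, and the sequences were read 5′ to 3′ from GENCODE vM21 transcripts on GRCm38.
*Tuba1b*: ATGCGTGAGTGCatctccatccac
*Tuba1c*: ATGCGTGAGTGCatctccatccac
*Tuba4a*: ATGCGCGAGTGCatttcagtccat
*Tubb5*: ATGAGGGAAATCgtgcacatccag
*Tubb4b*: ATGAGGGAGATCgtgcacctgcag
*Tubb2b*: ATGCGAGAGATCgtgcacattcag
*Tubb2a*: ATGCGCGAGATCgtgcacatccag
These 24 bases were the same in *Tuba1b* and *Tuba1c*. The fourth codon was TGC in the 3 alpha-tubulin genes and ATC in the 4 beta-tubulin genes shown, *Tubb6* not being among them. The capitals differed only in the second codon among the alpha-tubulin genes, and only in the second and the third codon among the beta-tubulin genes shown.

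The deposited values were log2 CPM, and whole read counts could be recovered from them. The listed genes summed to between 7305053 and 9362587 reads in the 2D samples, 7727642 and 8364276 in 3D, 4256391 and 11702504 in the internal region and 4044230 and 6086089 in the external region. The libraries were made from the 3′ ends of transcripts, so read numbers were compared between isotypes without correction for transcript length. The 8 genes were read far above the 3 reads (0.248 to 0.802 CPM) taken as the smallest signal, the lowest value being 117 reads for *Tuba4a* in internal replicate 3. Of the 10 lens epithelium markers examined, 6 had rows in both tables, including *Pax6* and *Six3*, whereas *Foxe3*, *Cryaa*, *Sox2* and *Cdh1* had none. In 3D *Pax6* (0.69), *Six3* (0.48) and *Pdpn* (1.91) were higher and *Cdh2* (-0.68) lower on the log2 scale, and the 6 summed to 1896 to 2154 CPM, against 1112 to 1555 in 2D. *Pax6* and *Six3* were not called without 2D replicate 3 (limma adjusted p of 0.068 and 0.0686), and *Pdpn* moved to 1.29. Internally 2 of the 6 were higher, *Pax6* (0.65) and *Cryab* (0.43), the latter a crystallin gene also abundant in fiber cells, and the other 4 did not pass (*Six3* 0.39, *Cdh2* -0.13, *Itga6* -0.24 and *Pdpn* -0.01). The internal sums were 1525 to 1789 CPM, against 1311 to 1496 externally. Of the 10 neuron markers, only *Syt1* and *Elavl4* were listed in the cultures, where their sum reached at most 6.0 CPM. Only *Syt1* was listed in the regions, with at most 11.7 CPM and a higher level internally (limma adjusted p = 0.0288). Its external samples had 13, 1 and 17 reads, near the smallest signal, so no fold is given. Of all genes, 9.74% were higher and 9.25% lower in 3D and 9.58% and 12.1% internally, for reading the marker counts. Of 7 fibroblast markers, 6 had rows in the cultures and summed to 451 to 702 CPM in 3D and 70.1 to 227 in 2D. In the cultures 3 of the 6 passed as higher (*Dcn*, *Col3a1* and *Thy1*). Of these, *Thy1* had 0 to 3 reads in the 2D samples and passed the filter on low CPM through the 3D samples. Between the regions, where 5 had rows, *Col3a1* was higher internally (1.59) and *Col1a1* lower (-1.56), with sums of 402 to 494 CPM internally and 221 to 589 externally. Of the 11 lens fiber markers, 3 had rows in the regions and summed to 271 to 314 CPM internally and 95.7 to 115 externally. *Prox1* (1.45 on the log2 scale) and *Hsf4* were higher internally. *Hsf4* had 0, 6 and 5 reads in the external samples, near the smallest signal, so no fold is given for it. Only *Prox1* had a row in the cultures, where it was not called with all samples and was higher in 3D without 2D replicate 3 (1.15, limma adjusted p = 0.00382). The part of these cell type markers in the tubulin differences was not tested. The 2D replicate 3 stood apart, with 1 read of the fiber marker *Prox1*, where the rest of its group had 327 to 355, and with 190 listed genes at 0 reads, where the rest had 21 to 68, so the calls, shares and sums of the cultures are also given without it.

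Sequence similarity limited how surely reads could be given to a gene, because the authors kept uniquely mapped reads. *Tuba1b* and *Tuba1c* were 97.9% identical over their coding sequences. Reads of this kind of library fall in the last 300 nucleotides of the transcript, which here include coding bases. Only 157 bases of *Tuba1b* and 101 of *Tuba1c* follow the stop codon. An end-to-end alignment of the 300 gave 44.4%, but it set the coding parts out of register and so understates their likeness. Of the 251 stretches of 50 nucleotides in those 300, up to 87 in *Tuba1b* and up to 107 in *Tuba1c* also occurred in another annotated transcript, including *Tuba1a*. The corresponding number was up to 76 in *Tubb4b*, shared with pseudogenes, and up to 41 in *Tubb2a*. Of the 201 stretches of 100 nucleotides, up to 37 in *Tuba1b*, 57 in *Tuba1c* and 26 in *Tubb4b* were shared, and 0 in *Tubb2a*. No stretch of *Tuba4a*, *Tubb2b*, *Tubb5* or *Tubb6* was shared. Reads that matched more than 1 of these genes equally well would not have been counted, and how many alpha-tubulin reads, of *Tuba1a* among them, were left out in this way was not tested, so the alpha-tubulin shares, sums and ratios describe the uniquely assigned reads. The assignment of reads to *Tuba1b*, *Tuba1c* and *Tubb4b* is therefore less certain than for the other isotypes, and that of *Tubb2a* is less certain for the shorter reads.

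First, the 3D spheroids were compared with the 2D cultures, to see how expression differed between them. The cultures also differed in adhesion, density and handling, and the effects of these and of growth in 3 dimensions cannot be told apart. Among the 8 isotypes, 5 were lower in 3D, *Tubb2b* was higher and *Tubb5* and *Tubb2a* did not pass the test (limma, Benjamini-Hochberg adjusted p under 0.05 over all 11677 genes). Across all genes 9.25% were lower and 9.74% higher by this rule. At the thresholds of the study's results (adjusted p below 0.01 with more than 1 log2 unit of change), *Tuba1c* and *Tubb4b* were lower and no isotype was higher, against 1.51% and 2.92% of all genes. The median log2 fold change of the isotypes was -0.79, against -0.03 for all genes. Without 2D replicate 3, 4 isotypes were lower and 0 higher, against 5.66% and 7.36% of all genes, and 0 passed as lower at the study's thresholds, against 0.796%.

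Second, the internal region was compared with the external region, which asks how expression differs between the layers of a spheroid. Here 7 isotypes were lower in the internal region, none was higher and *Tubb2a* did not pass (limma, adjusted over 11299 genes). By the same rule 12.1% of all genes were lower and 9.58% higher. At the study's thresholds 5 isotypes were lower, against 4.35% of all genes, and none was higher, against 3.27%. The median was -1.76 for the isotypes and 0.04 for all genes. The study had set aside a further external sample on its expression, which may narrow the external spread behind these regional calls. In bulk samples such as these, fewer cells of a type and less RNA per cell cannot be told apart.

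**Figure D1:**
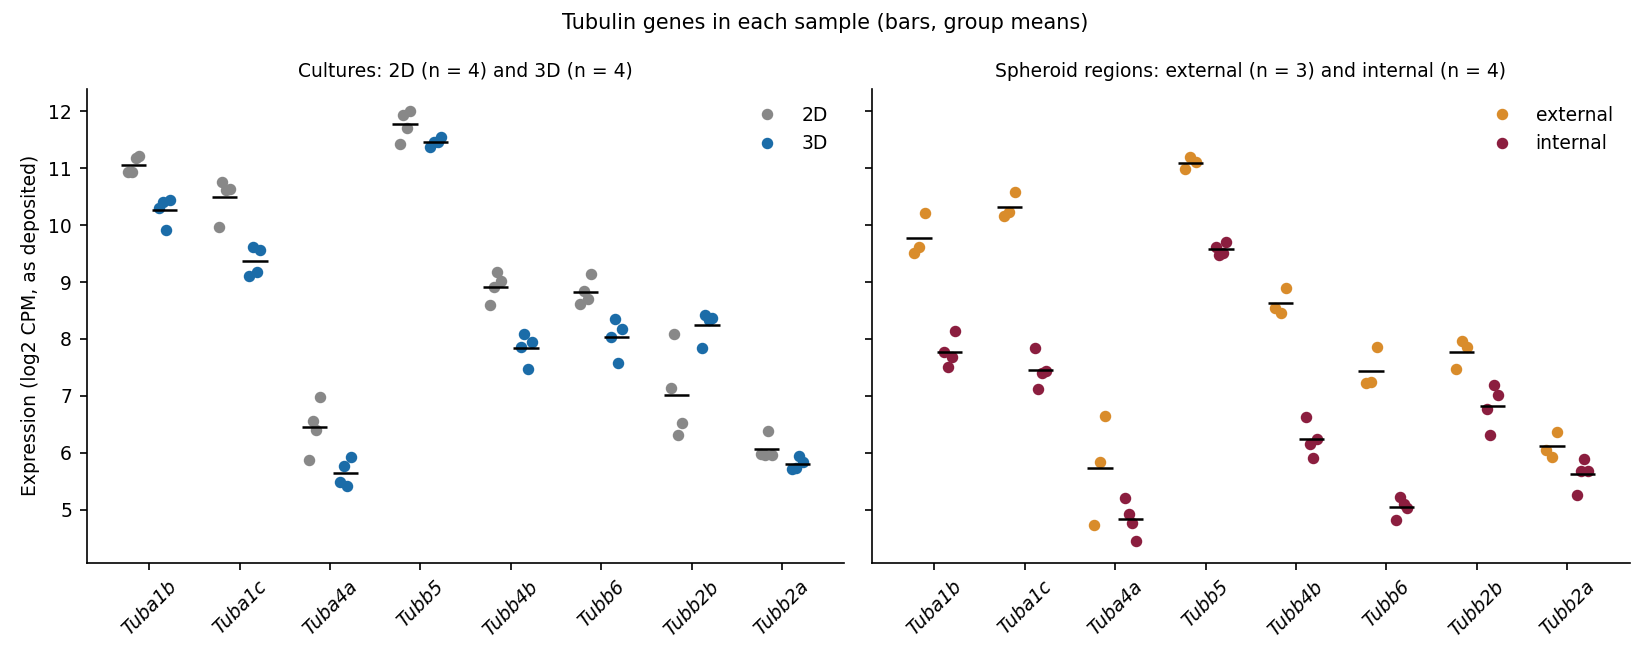
Expression of the 8 tubulin genes in log2 CPM as deposited, in every sample of the cultures (left) and of the spheroid regions (right); points are samples and bars group means. *Tubb2b* is the gene whose mean is higher in 3D than in 2D, and all 8 internal means lie below the external ones.

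Among the alpha-tubulins, *Tuba1b* is a broadly expressed isotype (chr15:98931425-98934565, minus strand of GRCm38). Its log2 CPM was 10.93, 10.93, 11.18 and 11.22 in the 2D samples and 10.30, 10.41, 9.92 and 10.45 in 3D. All 3D values lay below all 2D values, with a log2 fold change of -0.80 ± 0.15 (SE, n = 4 and 4, limma adjusted p = 0.00729), and of -0.76 without 2D replicate 3 (adjusted p = 0.0223). In the regions, *Tuba1b* read 7.77, 7.51, 7.69 and 8.14 in the internal samples and 9.52, 9.61 and 10.22 in the external ones. The groups did not overlap and differed by -2.01 ± 0.17 on the log2 scale (SE, n = 4 and 3, adjusted p = 1.06e-08).

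*Tuba1c*, the other abundant alpha isotype, lies nearby (chr15:99029891-99038110, plus strand). Its log2 CPM was 9.96, 10.76, 10.61 and 10.64 in 2D and 9.11, 9.62, 9.17 and 9.57 in 3D, again without overlap. The difference was -1.13 ± 0.20 on the log2 scale (SE, limma adjusted p = 0.00445). Without 2D replicate 3 it was -1.09 (adjusted p = 0.0133), no longer within the study's thresholds. *Tuba1c* had the largest regional difference of the isotypes. It read 7.84, 7.12, 7.40 and 7.44 in the internal samples and 10.16, 10.23 and 10.58 in the external ones. These differed by -2.87 ± 0.16 on the log2 scale (SE, adjusted p = 2.27e-11), and by p-value the gene ranked 2 of 11299.

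*Tuba4a*, an alpha isotype whose encoded protein lacks the usual C-terminal tyrosine, was the least abundant of the 3 (chr1:75214228-75219865, minus strand). It read 5.87, 6.56, 6.40 and 6.98 log2 CPM in 2D and 5.48, 5.77, 5.41 and 5.92 in 3D. The groups overlapped slightly, with 3D replicate 4 above 2D replicate 1. The log2 fold change of -0.81 ± 0.22 (SE, limma adjusted p = 0.0302) lost its call in 6 of 17 alternatives, including without 2D replicate 3 (-0.82, adjusted p = 0.0575). In the regions the values were 5.21, 4.92, 4.76 and 4.45 internally and 4.73, 5.84 and 6.64 externally. The lowest external sample lay within the internal range. The log2 fold change of -0.90 ± 0.32 (SE, adjusted p = 0.0443) moved to -0.45 (adjusted p = 0.381) without external replicate 3 and to -1.41 without external replicate 1.

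Among the beta-tubulins, *Tubb5*, which encodes the most widespread beta isotype, gave the most reads (chr17:35833921-35838306, minus strand). Its log2 CPM was 11.43, 11.94, 11.71 and 12.01 in 2D and 11.37, 11.46, 11.46 and 11.55 in 3D. The groups overlapped, because 2D replicate 1 was as low as the 3D samples. The log2 fold change of -0.31 ± 0.16 (SE) had a 95% interval of -0.67 to 0.04 and did not pass the test (limma adjusted p = 0.192), nor did it without 2D replicate 3 (-0.34, adjusted p = 0.258). In the regions *Tubb5* was clearly separated, with 9.61, 9.48, 9.52 and 9.70 in the internal samples and 10.98, 11.19 and 11.10 in the external ones. This gave a log2 fold change of -1.52 ± 0.13 (SE, adjusted p = 8.70e-09).

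*Tubb4b*, a beta isotype found in most tissues and known for its part in cilia (chr2:25222160-25224702, minus strand), read 8.59, 8.92, 9.17 and 9.01 log2 CPM in 2D and 7.86, 8.09, 7.47 and 7.95 in 3D. The groups did not overlap and differed by -1.08 ± 0.17 on the log2 scale (SE, limma adjusted p = 0.00268). Without 2D replicate 3 the value was -0.999 (adjusted p = 0.00809), just short of the study's fold threshold. In the regions it read 6.64, 6.16, 5.90 and 6.24 internally and 8.55, 8.46 and 8.90 externally. The difference was -2.40 ± 0.17 (SE, adjusted p = 1.23e-09).

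*Tubb6*, the class V beta isotype (chr18:67390717-67402749, plus strand), read 8.62, 8.84, 8.70 and 9.14 log2 CPM in 2D and 8.03, 8.35, 7.58 and 8.18 in 3D. The groups did not overlap, and the log2 fold change was -0.78 ± 0.18 (SE, limma adjusted p = 0.0145), or -0.83 without 2D replicate 3 (adjusted p = 0.027). In the internal region it read 4.83, 5.22, 5.10 and 5.02, against 7.23, 7.24 and 7.85 in the external region. The regions did not overlap and the difference was -2.40 ± 0.20 (SE, adjusted p = 8.43e-09).

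*Tubb2b*, known for its role in the developing brain (chr13:34126748-34130466, minus strand), moved in opposite directions in the 2 comparisons. It read 7.13, 8.09, 6.31 and 6.53 log2 CPM in 2D and 7.83, 8.42, 8.32 and 8.38 in 3D. The 2D samples were widely spread, and 2D replicate 2 lay above 3D replicate 1. Even so the gene was higher in 3D, by a log2 fold change of 1.22 ± 0.33 (SE, limma adjusted p = 0.0277). This call was lost in 6 of 17 alternatives, with an adjusted p between 0.00101 and 0.0787 over all 17, and without 2D replicate 3 it was 0.99 (adjusted p = 0.0645). Between the regions *Tubb2b* was lower internally, with 6.77, 6.31, 7.20 and 7.01 against 7.47, 7.97 and 7.85 externally. The groups did not overlap, and the log2 fold change was -0.94 ± 0.19 (SE, adjusted p = 0.000736), a call lost without a variance trend (adjusted p = 0.0527; 0.000243 to 0.0527 over the 16 alternatives). Whether the effects of the 2 comparisons differ was not tested, because the tables were normalised separately.

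*Tubb2a*, the close neighbour of *Tubb2b* (chr13:34074274-34078007, minus strand), shared 96.5% of the coding sequence with it. The last 300 nucleotides gave 43.0%, but only 194 bases of *Tubb2a* follow its stop codon, against 723 of *Tubb2b*, so unlike parts were aligned. *Tubb2a* read 5.97, 5.97, 6.39 and 5.96 log2 CPM in 2D and 5.72, 5.74, 5.94 and 5.83 in 3D. The 3D samples were all below the 2D samples, by little. The log2 fold change of -0.27 ± 0.14 (SE, 95% interval -0.58 to 0.05) did not pass (limma adjusted p = 0.213), and it was -0.16 without 2D replicate 3. In the regions the values were 5.26, 5.69, 5.90 and 5.69 internally and 6.05, 5.92 and 6.37 externally, with a log2 fold change of -0.48 ± 0.21 (SE, adjusted p = 0.101). In all, 5 of the 8 isotypes had culture groups that did not overlap, against 24.0% of all genes, and 7 of 8 had regional groups that did not overlap, against 29.0%.

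**Figure D2:**
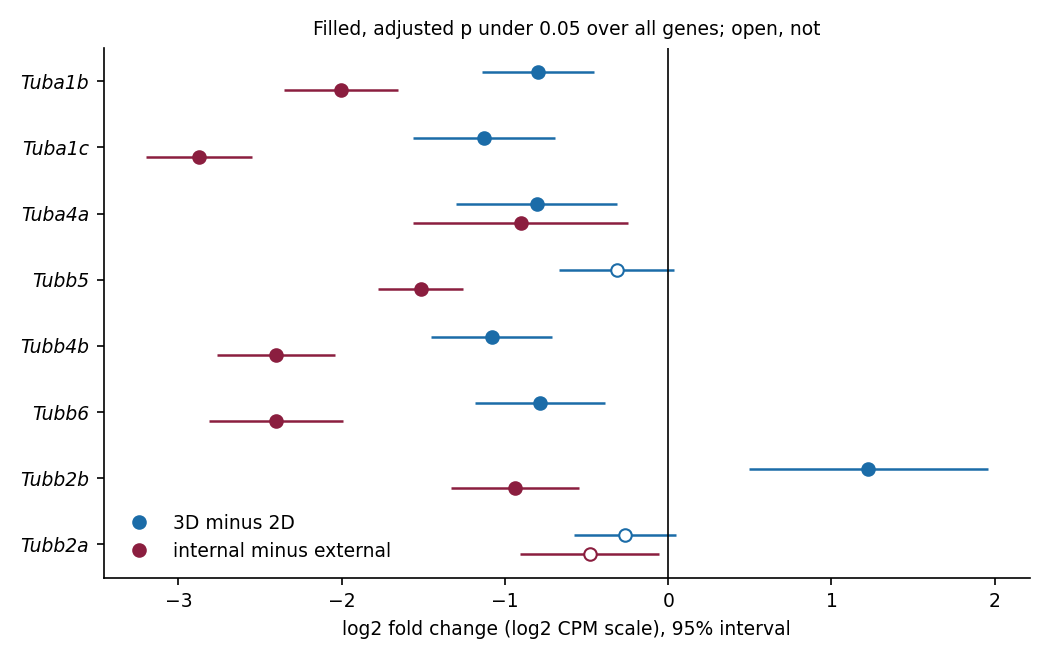
Log2 fold change of each tubulin gene, 3D minus 2D in blue (n = 4 and 4) and internal minus external in red (n = 4 and 3), with 95% intervals from limma; filled points passed an adjusted p under 0.05. *Tubb2b* in 3D is the point to the right of 0, and *Tuba1c* between the regions lies farthest to the left at -2.87.

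The isotypes were next considered as shares of the recovered reads of their class in each sample, which do not depend on the scaling between samples. These shares are descriptions and were not tested, and their counting error was small (Wilson 95% intervals of plus or minus 0.0923 to 2.34 percentage points, covering counting error only). *Tuba1b* made up 58.3% ± 5.4 (SD, n = 4) of alpha-tubulin reads in 2D and 63.4% ± 3.1 (n = 4) in 3D, and the samples overlapped. In the external region it made up 39.7% ± 2.2 (n = 3) and in the internal region 51.8% ± 5.8 (n = 4). *Tuba1c* was the mirror image, with 39.3% ± 5.2 in 2D, 34.0% ± 3.0 in 3D, 57.8% ± 3.1 in the external and 41.3% ± 4.7 in the internal region. *Tuba1c* thus gave more reads than *Tuba1b* in every external sample and in internal replicate 1, and fewer in the other 3 internal samples and all 8 culture samples. *Tuba4a* contributed 2.40% in 2D, 2.57% in 3D, 2.57% in the external and 6.82% in the internal region.

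*Tubb5* held most of the beta-tubulin reads in all groups, 75.2% ± 1.4 (SD, n = 4) in 2D, 76.7% ± 2.1 (n = 4) in 3D, 71.7% ± 3.0 (n = 3) in the external and 73.6% ± 1.8 (n = 4) in the internal region. The remainder was divided differently between groups. *Tubb2b* held 3.11% ± 1.70 in 2D and 8.28% ± 1.09 in 3D, with every 3D sample (6.68% or more) above every 2D sample (5.23% or less). It also held a larger share internally, 11.1% ± 2.46, than externally, 7.14% ± 0.79, although its level was lower there. *Tubb4b* held 10.5% in 2D and 6.29% in 3D, and 13.1% externally and 7.34% internally. *Tubb6* held 9.74% and 7.25% in 2D and 3D and 5.78% and 3.18% externally and internally, and *Tubb2a* had 1.47% and 1.52% in the cultures and 2.28% and 4.83% in the external and internal regions. Between the cultures the shares of *Tubb2b*, *Tubb4b* and *Tubb6* did not overlap, and between the regions those of every isotype except *Tubb5* did not. Without 2D replicate 3 the 2D means were 58.2%, 39.3% and 2.50% for *Tuba1b*, *Tuba1c* and *Tuba4a*, and 75.5%, 9.73%, 9.91%, 3.56% and 1.34% for *Tubb5*, *Tubb4b*, *Tubb6*, *Tubb2b* and *Tubb2a*.

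**Figure D3:**
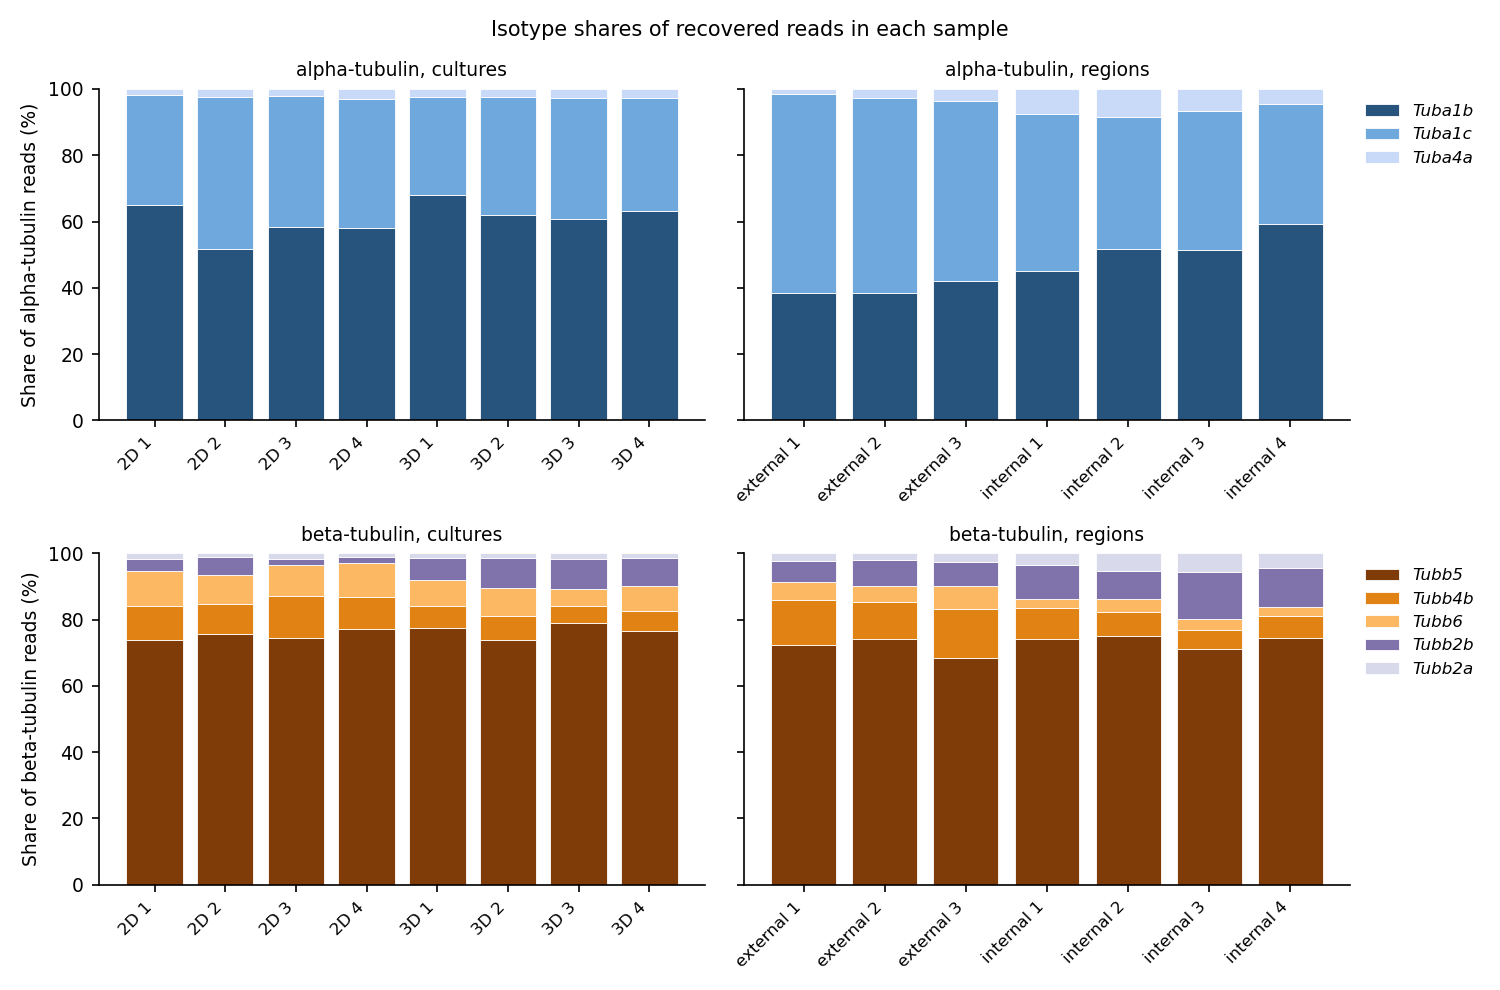
Share of each isotype in the recovered alpha-tubulin reads (top, percent) and beta-tubulin reads (bottom, percent), with a bar for each sample of the cultures (left) and regions (right). *Tuba1c* is the larger alpha share in the 3 external samples, and *Tubb2b* takes 6.68% or more of beta-tubulin reads in every 3D sample.

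The summed expression of the 8 genes was lower in 3D than in 2D and lower in the internal than in the external region. Alpha-tubulin summed to 3714 ± 490 CPM in the flat cultures and 1963 ± 303 in the spheroids (SD, 4 samples of each), a difference of -0.92 on the log2 scale, and the groups did not overlap. Beta-tubulin summed to 4704 ± 746 CPM in 2D and 3678 ± 232 in 3D, a log2 difference of -0.34, and the groups overlapped. In the regions alpha-tubulin summed to 2255 ± 493 CPM externally (n = 3) and 428 ± 64 internally (n = 4), a log2 difference of -2.39. Beta-tubulin summed to 3053 ± 234 and 1039 ± 70 CPM, a log2 difference of -1.55, and neither regional sum overlapped. The 8 genes together were 1.48 times higher in 2D than in 3D and 3.61 times higher in the external than in the internal region. The culture differences on the log2 scale without 2D replicate 3 were -0.89 for alpha-tubulin, -0.36 for beta-tubulin and -0.56 for all 8 genes.

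The ratio of beta- to alpha-tubulin CPM was 1.27 ± 0.11 in the flat cultures and 1.90 ± 0.24 in the spheroids (SD, 4 samples of each). It was 1.38 ± 0.21 (n = 3) in the external and 2.45 ± 0.23 (n = 4) in the internal region. The lowest 3D ratio, 1.73, exceeded the highest 2D ratio, 1.38, and the lowest internal ratio, 2.18, exceeded the highest external ratio, 1.55. The 2D ratio was 1.31 ± 0.07 (SD, n = 3) without 2D replicate 3. The ratio counts 3 of the alpha-tubulin genes and 5 of the beta-tubulin genes, and levels were set across the 2 tables only as values.

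**Figure D4:**
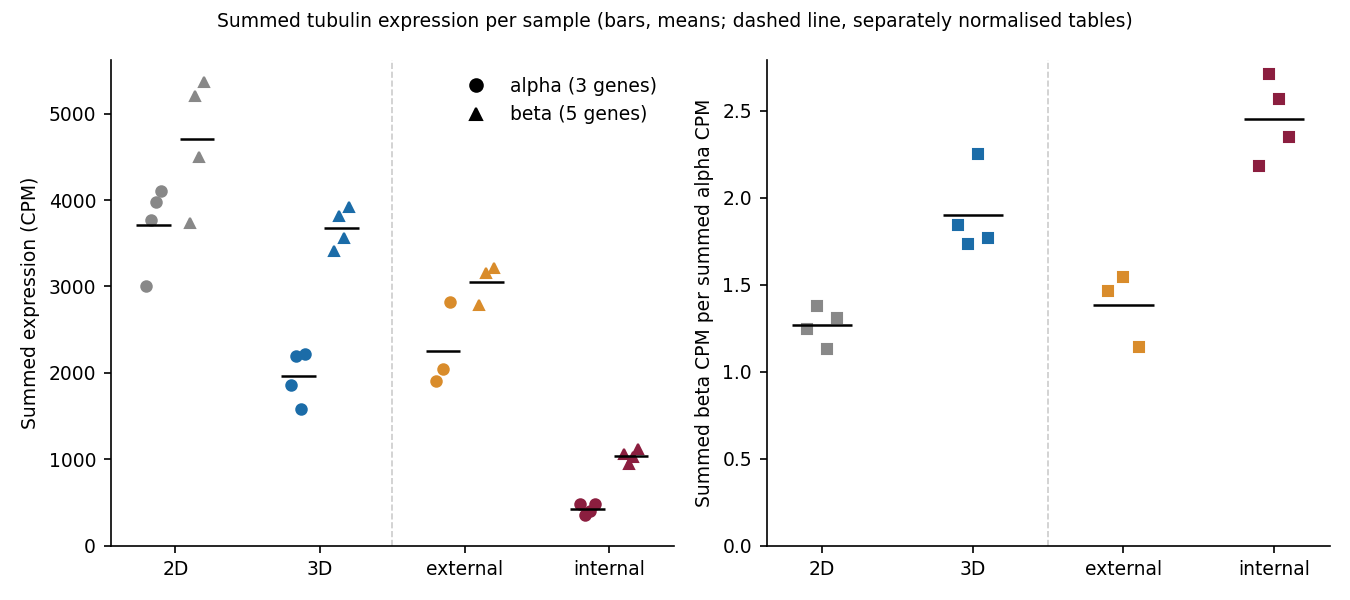
Summed CPM of the 3 alpha-tubulin genes (circles) and 5 beta-tubulin genes (triangles) on the left, and their ratio on the right, in each sample, with bars at group means; the dashed line parts the separately normalised tables. The internal samples have the lowest sums, and their ratios, from 2.18 up, lie above those of the external samples.

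Promoters are shown for members that were lower together between the regions (*Tuba1c*, *Tubb4b* and *Tubb5*) and for *Tubb2a*, which did not pass. The bases are those before the RefSeq start on GRCm38.p6, 5′ to 3′ on the strand of the gene, at chr15:99029641-99029890 (plus), chr2:25224703-25224952 (minus), chr17:35838307-35838551 (minus) and chr13:34078009-34078258 (minus) in that order. The search on both strands was for CCAAT (the CCAAT box), GGGCGG (the GC box), TATAAA (the TATA box), and TTTGAA and TTCGAA (forms of the cell cycle genes homology region), and the capitals mark every match.
*Tuba1c*: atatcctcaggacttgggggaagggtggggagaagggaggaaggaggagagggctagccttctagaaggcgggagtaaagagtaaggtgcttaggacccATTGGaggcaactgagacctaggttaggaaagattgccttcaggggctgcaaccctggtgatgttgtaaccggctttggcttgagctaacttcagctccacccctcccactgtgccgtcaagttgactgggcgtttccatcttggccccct
*Tubb4b*: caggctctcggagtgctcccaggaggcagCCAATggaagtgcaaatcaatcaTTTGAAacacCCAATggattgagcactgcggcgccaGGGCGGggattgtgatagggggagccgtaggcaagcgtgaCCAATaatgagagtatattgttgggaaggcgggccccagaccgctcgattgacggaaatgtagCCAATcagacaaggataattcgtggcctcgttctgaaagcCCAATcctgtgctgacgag
*Tubb5*: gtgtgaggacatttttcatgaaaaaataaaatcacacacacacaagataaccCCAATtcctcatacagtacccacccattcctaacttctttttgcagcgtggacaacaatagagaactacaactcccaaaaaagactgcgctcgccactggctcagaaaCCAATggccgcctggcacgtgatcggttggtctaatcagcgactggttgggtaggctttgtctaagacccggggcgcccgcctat
*Tubb2a*: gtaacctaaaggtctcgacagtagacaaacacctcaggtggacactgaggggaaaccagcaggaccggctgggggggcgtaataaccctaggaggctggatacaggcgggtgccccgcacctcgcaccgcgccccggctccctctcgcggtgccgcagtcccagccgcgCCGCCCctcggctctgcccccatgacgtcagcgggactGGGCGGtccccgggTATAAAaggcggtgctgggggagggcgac
The window of *Tubb4b* held CCAAT 5 times, with GGGCGG and TTTGAA once each. *Tubb5* held CCAAT 2 times, *Tuba1c* held it once, on the opposite strand, and *Tubb2a* held GGGCGG 2 times and TATAAA at 29 bases before the start. The windows of *Tuba1b* and *Tuba4a*, which overlap the genes in GENCODE and are not printed, each held GGGCGG 2 times. Of 32851 RefSeq promoter windows of 250 bases, 33.9% held CCAAT, 32.7% GGGCGG, 12.4% TATAAA, 16.0% TTTGAA and 1.34% TTCGAA. RefSeq windows were matched for 6 of the members, and a match is a description of letters, not of binding.

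Genes that work on or with tubulin were then examined in lists. The CCT chaperonin, which folds newly made tubulin, had 5 of 8 subunit genes lower in 3D and 8 of 8 lower in the internal region, against 9.25% and 12.1% of all genes, with median log2 fold changes of -0.49 and -0.81. The culture count was 2 of 8 without 2D replicate 3, when 5.66% of all genes were lower, with a median of -0.51, as *Cct2*, *Cct3* and *Cct5* were no longer called (adjusted p of 0.0733, 0.0516 and 0.0737). *Cct8* fell by 0.73 in 3D (SE 0.13, limma adjusted p = 0.00488), and *Cct3* was lower in both comparisons (-0.58 and -1.06). Of the 13 tubulin folding cofactors and prefoldin genes, *Pfdn5* and *Tbca* were higher in 3D (0.84 and 0.40), none was lower, and *Pfdn1* was lower internally (-0.91), counts near the shares of all genes (9.74% higher in 3D and 12.1% lower internally). None of the 4 genes of the tubulin mRNA autoregulation list (*Ttc5*, *Scaper*, *Cnot11* and *Cnot1*) passed the test in either comparison. *Ttc5*, which encodes the factor that recognises nascent tubulin, had log2 fold changes of 0.45 ± 0.30 in 3D and -0.01 ± 0.63 internally (SE).

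Of the 16 tubulin modifying enzymes measured, 3 were higher in 3D and none lower, against 9.74% and 9.25% of all genes. They were *Atat1*, the alpha-tubulin acetyltransferase (1.05 ± 0.19, SE), *Sirt2*, a tubulin deacetylase (0.76 ± 0.17), and *Ttll5*, a glutamylase (0.67 ± 0.18), which was no longer called without 2D replicate 3 (adjusted p = 0.0695), leaving 2 of 16 against 7.36% of all genes. *Atat1* was also higher in the internal region (0.83 ± 0.29, limma adjusted p = 0.0396), with overlapping groups. Among microtubule destabilisers and severing enzymes 5 of 11 were lower and 1 higher in 3D, and 3 of 12 lower and 1 higher internally. The shares of all genes were 9.25% lower and 9.74% higher in 3D and 12.1% and 9.58% internally, and the single higher gene in each comparison is near them. The mitotic kinesin genes *Kif2c* and *Kif18b*, whose products depolymerise or damp microtubule ends, were lower in both comparisons, although their internal means, -0.57 and -1.30 log2 CPM, lay near the smallest signal of 3 reads, so they passed the low-level cut through the external samples and no regional fold is given. *Stmn1*, which encodes the tubulin-sequestering protein stathmin, was lower internally by -3.47 ± 0.25 (SE, adjusted p = 1.37e-09), whereas the severing enzyme gene *Fign* was higher in 3D (0.61) and internally (1.16). Without 2D replicate 3, 4 of the destabilisers were lower in 3D and none higher, against 5.66% and 7.36% of all genes. *Stmn1* (limma adjusted p = 0.101) and *Fign* (adjusted p = 0.0901) had then lost their calls. Of the 4 other tubulin genes with rows, *Tubg1*, the gamma-tubulin of nucleating complexes, was lower internally (-1.45 ± 0.23), and none passed between 3D and 2D.

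In the remaining lists between 0 and 2 genes passed in a direction, where the shares of all genes were 9.25% lower and 9.74% higher in 3D and 12.1% and 9.58% internally. Of the microtubule-associated proteins, 1 of 11 was lower in 3D (*Map1b*, -0.63) and 1 higher (*Map2*, at the level of a few reads and named after its values were seen), and 1 of 10 was lower internally (*Dclk1*, -0.66). Of the 12 plus-end and polymerisation factors, *Ckap5* (-0.79) and *Clip1* (-0.63) were lower and *Mapre3* (0.94) was higher in 3D, and *Clip2* was lower internally (-0.75). *Map1b* was not called without 2D replicate 3 (adjusted p = 0.0695). Of the 9 genes of the gamma-tubulin ring complex list none passed in 3D and *Tubg1* alone internally.

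Mitotic spindle and proliferation genes moved in the same direction as most isotypes. Of 16, 14 were lower in 3D (median -1.24) and 15 lower in the internal region, and none was higher, against 9.25% and 12.1% of all genes that were lower. Internally several lay near the smallest signal of 3 reads, such as *Bub1* with 0 reads in every internal sample and *Cdc20* with 3 to 13. These passed the low-level cut through the external samples, so no regional median is given. The culture count was again 14 without 2D replicate 3, with a median of -1.22, against 5.66% of all genes. *Cdk1*, which drives entry into mitosis, was not called in the cultures, where replicate 2 of each group stood apart for it. The gene had 116 reads in that 2D sample, with 3179 to 4228 in the rest of the group, and 164 in that 3D sample, with 859 to 1128 in the rest. Leaving out 2D replicate 2 changed no isotype call at an adjusted p under 0.05, and leaving out 3D replicate 2 ended those of *Tubb2b* (1.16, limma adjusted p = 0.0657) and *Tuba4a* (-0.85). The 16 mitotic genes summed to 1784 to 3489 CPM in 2D, 1040 to 1220 in 3D, 808 to 1119 in the external and 56.7 to 119 in the internal region. *Top2a*, a marker of dividing cells, changed by -0.99 ± 0.14 and -3.26 ± 0.23 (SE) in the 2 comparisons. The part of cell division in the tubulin differences was not tested.

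**Figure D5:**
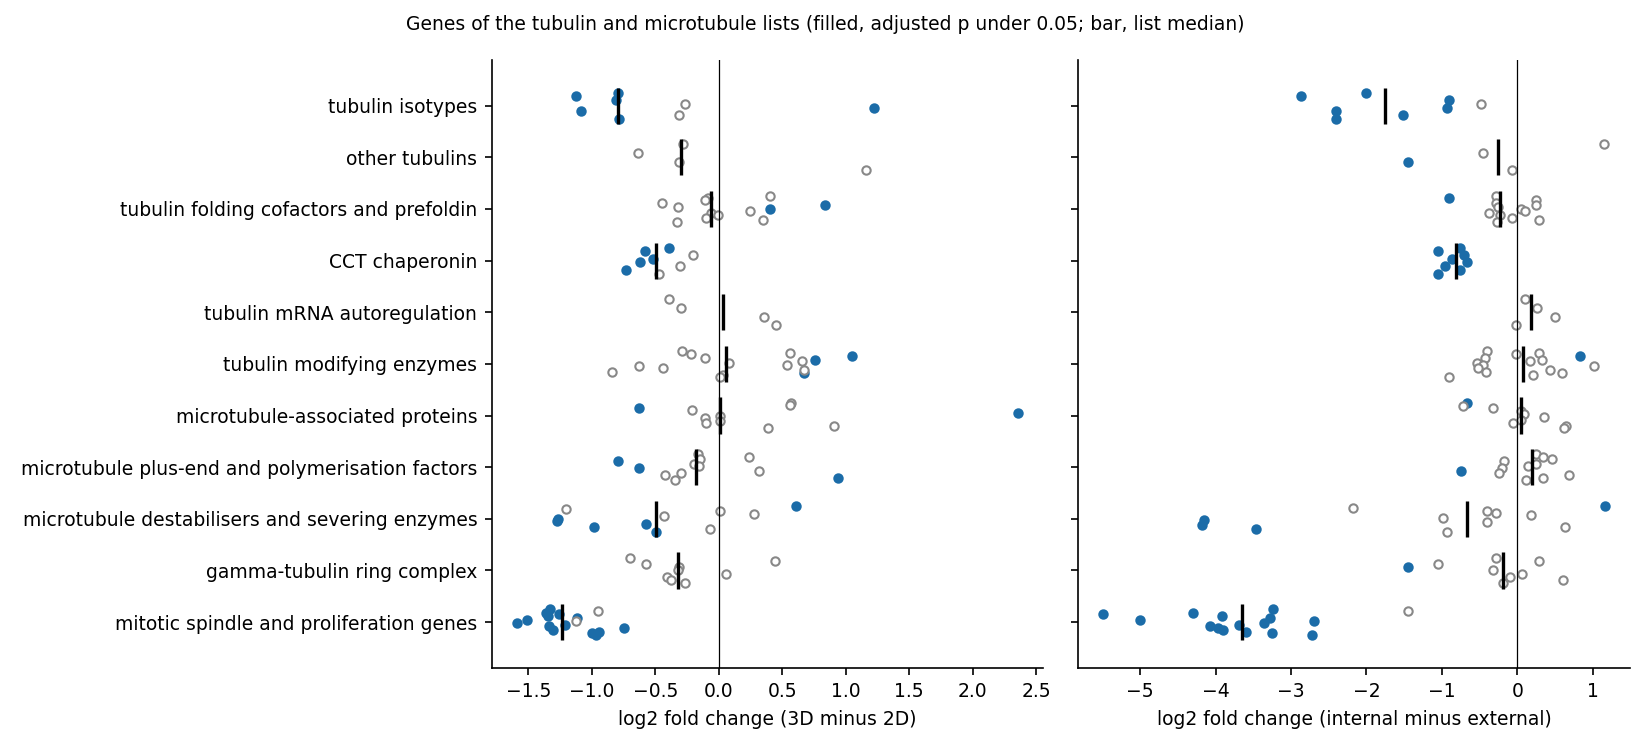
Log2 fold change of each gene in the tubulin and microtubule lists, 3D minus 2D (left) and internal minus external (right), with limma adjusted p under 0.05 filled and list medians as bars. The isotypes, the CCT chaperonin and the mitotic genes lie mostly left of 0 in both panels, with regional medians of -1.76 for the isotypes and -0.81 for the chaperonin. Several mitotic genes lay near the smallest signal internally, so the regional bar of that list is not read as a size.

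Finally, log2 CPM was centred within each table and profiles were compared over the 15 samples, as a description, since all points share group differences and scaling. *Tuba1b*, *Tuba1c*, *Tubb4b*, *Tubb5* and *Tubb6* correlated with one another at Pearson r of 0.935 to 0.986. *Tubb2b* stood apart, with r from -0.05 to 0.34 to the others. Among 11041 genes, the 5 most like *Tuba1c* were *Chaf1a* (0.991), *Tubb4b* (0.986), *Uhrf1* (0.982), *H1f10* (0.975) and *Tmem97* (0.970). The 5 most like *Tubb2b* were *Litaf* (0.921), *Psme1* (0.917), *Cdsn* (0.911), *Limd2* (0.909) and *Cul7* (0.907).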

How the data were processed

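RNA was measured by QuantSeq 3′ end sequencing, with different extraction kits for the cultures and the microdissected regions. Per the paper's methods, the authors trimmed reads, kept sense reads, aligned them with STAR 2.7.8a to GRCm38.p6, kept unique alignments, counted them with featureCounts 1.6.0, removed genes of low CPM and tested genes with edgeR. The annotation release is not given in the sources used here. The values the authors deposited are log2 CPM, a column for each sample, made with a prior count and held in 2 tables normalised separately (cultures and regions). The deposited fold changes and p-values were not used. A further external sample was not analysed here, because the study set it aside for differing from the others in a principal component analysis of expression. That choice may narrow the external spread, and so favour low regional p-values and groups that do not overlap.

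Whole reads were recovered from the log2 steps for 100.0% of values (tolerance 0.1 read) and served for depths, shares and sums. Because the deposited unit is log2 CPM, tests used limma 3.58.1 in R 4.3.3 on those values (empirical Bayes with variance trend, two-sided, Benjamini-Hochberg adjustment over every gene tested in the table, no filter beyond that of the authors), and the procedure was tested on simulated data. Calls used an adjusted p under 0.05, and separately the study's thresholds of 0.01 and a log2 fold change beyond 1 in size. Shares divide the reads of an isotype by those of its class. Isotypes were all described, and in the other lists up to 3 called genes per direction, averaging 2 log2 CPM or more in the higher group, could be named. *Ttc5*, *Scaper*, *Cnot11*, *Cnot1*, *Top2a*, *Cdk1*, *Map2*, *Cct2*, *Cct5*, *Stmn1* in 3D and the cell type markers are named outside that rule, with their values known. The members and lists were chosen with earlier results of these data known. Alternatives were other variance priors, limma-voom, library totals, median-of-ratios size factors, priors of 0.5 and 5 reads, a filter at 2 log2 CPM, a replicate block and leaving out each sample. The gene lists and the beta to alpha ratio without 2D replicate 3 were added after seeing the data. Depth ranged from 4044230 to 11702504 reads, the Wilson intervals of shares cover counting error only, and the limma intervals cover the spread between samples. Gene positions came from GENCODE vM21 and promoters from RefSeq.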

Additional observations from a re-analysis of the deposited data

Results flagged for a closer look

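Of 57 groups of 4 samples examined, 2 had a sample far from the others, where chance gives about 1 in 20. *Tubb2b* read 7.83 log2 CPM in 3D replicate 1 and 8.32 to 8.42 in the other 3D samples, and without that replicate the log2 fold change was 1.36 (limma adjusted p = 0.0404). *Tubb2a* read 6.39 log2 CPM in 2D replicate 3 and 5.96 to 5.97 in the other 2D samples, and without that replicate the log2 fold change was -0.16 (adjusted p = 0.492).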

How the results depend on the processing

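In 3D against 2D, *Tuba1b*, *Tuba1c*, *Tubb4b* and *Tubb6* kept their calls at adjusted p under 0.05 in all 17 alternatives. *Tuba1c* passed the study's thresholds in 11 of them and *Tubb4b* in 13. Of the 7 isotypes called between the regions, all but 2 kept their calls in all 16 alternatives, the exceptions being *Tuba4a*, lost in 11, and *Tubb2b*, lost without a variance trend (adjusted p = 0.0527). No direction reversed. Without a variance trend, no isotype was higher in 3D (0 against 1), 0 passed as lower at the study's thresholds (against 2), and the regional counts over all genes fell to 864 lower and 624 higher (from 1370 and 1083), and at the study's thresholds to 207 and 117 (from 491 and 370). The cause was not tested. With library totals the summed beta-tubulin difference between the regions was -1.44 in place of -1.55, and the median of all genes moved from 0.04 to 0.15.

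Same-numbered samples correlated at 0.00521 to 0.503 in the cultures, where samples of different number correlated at -0.330 to 0.188. The regional values were -0.065 to -0.044 and -0.073 to 0.064. The main fits took no numbers as pairs, and whether same-numbered cultures shared a batch was not tested. With a replicate block 719 genes were higher in the internal region (against 1083), and *Tuba4a* there lost its call (limma adjusted p = 0.159). In the cultures the block gave 1337 genes lower and 1343 higher (against 1080 and 1137), and still 5 isotypes lower and 1 higher. Leaving out each sample in turn in the cultures gave 533 to 1390 genes lower and 614 to 1444 higher, 49 to 287 and 112 to 483 at the study's thresholds, 0 to 1 isotype higher, 0 to 2 lower at the study's thresholds and 0 to 1 higher at them. *Tubb2b* passed as higher at those thresholds without 2D replicate 2 (1.58). The call of *Tubb2b* was lost without 2D replicates 3 and 4 and 3D replicates 2, 3 and 4, and neither *Tuba1c* nor *Tubb4b* passed the study's thresholds without 2D replicate 3 or 3D replicates 3 or 4. The 152 alternatives for the shares stayed within 1 SD. Depth limited little here, since the isotypes had 117 reads or more in every sample.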
